A study of Mus musculus with 6 samples.

Results

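The 10 genes described here were the glucocorticoid receptor Nr3c1, Hsd11b1, the enzyme that regenerates active hormone inside the cell, and the hormone-responsive genes Tsc22d3, Fkbp5, Per1, Zbtb16, Sgk1, Pdk4, Mt1 and Mt2. They were taken by gene symbol from the 40213 genes of the deposited count table and were chosen by their known link to the hormone with earlier fold changes of this same contrast, RFP KO-HFD against WT-HFD, in view. Their values are therefore a description and carry no test. All 10 were found in the table, and all 10 passed the filter on low counts that left 14706 genes. The table came from mRNA sequencing of epididymal white adipose tissue (eWAT), the fat pad beside the epididymis. The RFP KO-HFD group held 3 libraries from male mice without RFP, the protein encoded by Trim27, fed a high-fat diet (HFD, 60% fat) for 12 weeks from 8 to 10 weeks of age. The WT-HFD group held 3 libraries from male wild-type littermates on the same diet and of the same age. The methods list the RFP KO line apart from an adipocyte-specific knockout, which was not analysed here, and the labels name no hormone treatment in either group. The labels number the libraries without saying that each came from its own mouse, so the spread between libraries may be partly technical.

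Glucocorticoids reach fat as free hormone or are regenerated there from an inactive form by Hsd11b1, which uses cofactor made by H6pd. Bound hormone releases the receptor Nr3c1 from its chaperones, and the receptor then binds DNA at a palindromic glucocorticoid response element or works through other factors. In adipocytes the hormone is known for driving differentiation and changing lipid turnover, and it damps inflammatory genes in the immune cells of the tissue. Metallothioneins, small proteins that bind zinc and copper, are induced by the hormone and also by metals, through the metal-sensing factor Mtf1 and its metal response elements.

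Values are CPM, counts divided by a library size scaled by the trimmed mean of M-values (TMM), unless another scale is named. Total counts were 4870239 in the library labelled RFP KO-HFD 1, 13924363 and 13309044 in RFP KO-HFD 2 and 3, and 15216306 to 17215047 in the WT-HFD libraries. Trim27 was at 19.4, 4.10 and 4.63 CPM in RFP KO-HFD 1, 2 and 3, against 22.7, 40.2 and 29.5 CPM in WT-HFD 1, 2 and 3, so the targeted gene in the library labelled RFP KO-HFD 1 was near a WT-HFD level. Its label is therefore not borne out by Trim27, and the main values below that rest on it are given with and without it. That library had counts for 10758 genes, against 16396 to 20278 in the other 5, and none for Adipoq or Plin1, the defining adipocyte genes, which allows at most 0.607 CPM of each. The 8 hepatocyte markers summed to 21129 CPM in it and to 1710 and 4008 CPM in RFP KO-HFD 2 and 3, against 182 to 451 CPM in WT-HFD. Of these sums Cyp2e1 alone made up 1000, 1226 and 2665 CPM in RFP KO-HFD 1, 2 and 3, and 110 to 338 CPM in WT-HFD. It was thus most of the sum in every library but RFP KO-HFD 1. WT-HFD 2 stood apart in another way, with 21189 CPM of the 6 smooth muscle markers, against 27.5 to 1039 CPM in the other 5 libraries. In bulk tissue, fewer cells of a type and less RNA per cell cannot be told apart.

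Across the 10 genes the libraries labelled RFP KO-HFD fell on both sides of WT-HFD. Measured as log2(CPM + 1) against the average of WT-HFD, the median difference was -1.34 in RFP KO-HFD 1, 1.23 in RFP KO-HFD 2 and 0.47 in RFP KO-HFD 3, against 0.21, -0.40 and 0.20 in WT-HFD 1, 2 and 3. RFP KO-HFD 1 lay above the highest WT-HFD library for 2 of the 10 genes (28.4% of all genes tested) and below the lowest for 6 (63.5%). RFP KO-HFD 2 and 3 lay above the highest WT-HFD library for 8 and 7 genes and below the lowest for 0 and 2. For RFP KO-HFD 2 and 3 singly the share over all genes was not computed, so nothing is read from their counts. With all 6 libraries edgeR's quasi-likelihood test called 0 of the 10 genes, as it called 0 of all 14706 genes (0%) at an adjusted p under 0.05, with 992 (6.75%) at an unadjusted p under 0.05, and DESeq2 called 0 of the 10 and 488 of 14159 (3.45%) at an adjusted p under 0.05. Limma-voom with a quality weight per library called 1059 (7.20%), and edgeR without RFP KO-HFD 1 and WT-HFD 2 called 507 of 15136 (3.35%), 4 of the 10 genes among them in each case. For 1 of the 10 genes every RFP KO-HFD library exceeded every WT-HFD library, beside 7.28% of all genes tested. Without RFP KO-HFD 1 this held for 7 of the 10, beside 21.1% of the 15606 genes then tested, and 0 of the 10 lay wholly below WT-HFD, beside 24.2%. On CPM of library totals in place of TMM it held for 4 of the 10 (Fkbp5, Zbtb16, Mt1 and Mt2), beside 9.03% of genes. Since these genes were chosen with this contrast known, nothing is read from those shares.

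**Figure D1:**
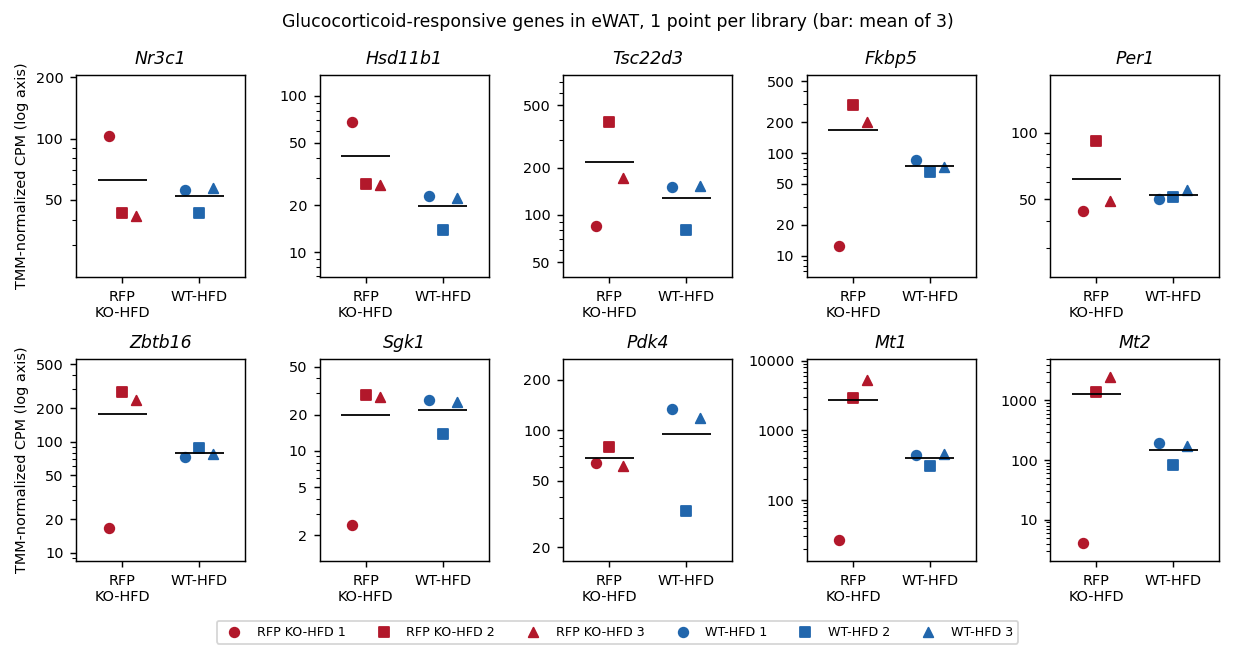
TMM-normalized CPM (log axes, each with its own range) of the 10 glucocorticoid-responsive genes in eWAT, 1 point per library (red RFP KO-HFD, blue WT-HFD; circles, squares and triangles are replicates 1, 2 and 3; the bar is the mean of 3). The circle of RFP KO-HFD 1 lies far below the other red points for Fkbp5, Zbtb16, Sgk1, Mt1 and Mt2, and above them for Nr3c1 and Hsd11b1.

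The receptor was measured at similar levels in most libraries. Nr3c1 was at 103, 43.1 and 41.9 CPM in RFP KO-HFD 1, 2 and 3, against 55.9, 43.0 and 57.3 CPM in WT-HFD 1, 2 and 3. RFP KO-HFD 1 was the highest library, and RFP KO-HFD 2 and 3 sat beside the lowest WT-HFD library. The log2 fold change of RFP KO-HFD over WT-HFD was 0.26 (standard error 0.462) with all 6 libraries and -0.31 without RFP KO-HFD 1 (-0.43 without WT-HFD 2 as well), and its sign was also negative with library totals and with limma-voom quality weights. On library totals RFP KO-HFD 2 and 3 held 42.3 and 28.6 CPM, below the 62.5, 49.6 and 63.8 CPM of WT-HFD 1, 2 and 3.

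Hsd11b1, which in fat works mainly to turn inactive 11-keto hormone into active hormone, was at 68.5, 27.4 and 27.0 CPM in RFP KO-HFD 1, 2 and 3, against 22.8, 13.8 and 22.2 CPM in WT-HFD 1, 2 and 3. It was the only one of the 10 genes for which the groups did not overlap. The distance came mostly from RFP KO-HFD 1, at 3.49 times the WT-HFD mean, while RFP KO-HFD 2 and 3 averaged 1.39 times that mean. Its log2 fold change was 1.06 (standard error 0.531), 0.45 without RFP KO-HFD 1, and 0.26 when WT-HFD 2 was left out as well. With library totals as the scale the groups overlapped, with 18.4 CPM in RFP KO-HFD 3, against 25.4, 15.97 and 24.7 CPM in WT-HFD 1, 2 and 3. Liver is known to express Hsd11b1 strongly, and all 8 hepatocyte markers lay higher in each RFP KO-HFD library than in any WT-HFD library, albumin (Alb) at 11766, 284 and 768 CPM, against 39.3, 65.8 and 51.6 CPM. The part of such RNA in the Hsd11b1 values was not tested.

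The targets Fkbp5 and Zbtb16 followed one pattern: far above WT-HFD in 2 RFP KO-HFD libraries and far below it in the library labelled RFP KO-HFD 1. Fkbp5 encodes a co-chaperone that binds the receptor complex and lowers its affinity for hormone, and it is a standard readout of receptor activity. It was at 12.3, 292 and 201 CPM in RFP KO-HFD 1, 2 and 3, against 84.7, 65.7 and 73.8 CPM in WT-HFD 1, 2 and 3. The WT-HFD libraries differed at most 1.29-fold, RFP KO-HFD 2 and 3 averaged 3.30 times the WT-HFD mean, and RFP KO-HFD 1 was 6.06-fold below it. Its log2 fold change was 1.17 (standard error 0.959) with all 6 libraries and 1.71 (standard error 0.237) without RFP KO-HFD 1, and its sign was positive under all 14 alternatives, from 0.54 to 1.71. Without RFP KO-HFD 2 it was 0.57. Of the 15606 genes fitted without RFP KO-HFD 1, 5.61% had a fold change as high as that of Fkbp5 or higher. Counts of Fkbp5 per count of Nr3c1, a ratio that needs no scaling between libraries and is not per length, were 0.120, 6.77 and 4.81 in RFP KO-HFD 1, 2 and 3, against 1.51, 1.53 and 1.29 in WT-HFD 1, 2 and 3.

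Zbtb16 (PLZF), a zinc finger transcription factor that glucocorticoids are known to induce, was at 16.8, 281 and 236 CPM in RFP KO-HFD 1, 2 and 3, against 72.6, 87.2 and 77.0 CPM in WT-HFD 1, 2 and 3. RFP KO-HFD 2 and 3 averaged 3.28 times the WT-HFD mean, close to the fold of Fkbp5, and RFP KO-HFD 1 lay 4.70-fold below it. The log2 fold change was 1.17 (standard error 0.895), and 1.70 (standard error 0.187) without RFP KO-HFD 1, as high as or higher than all but 5.66% of the genes fitted. Without RFP KO-HFD 2 it was 0.73, and over the 14 alternatives it was 0.56 to 1.78. The 3 WT-HFD libraries lay within 1.20-fold of each other, WT-HFD 2 included.

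The Fkbp5 gene spans chromosome 17 from 28617727 to 28705123 on the minus strand in the table's coordinates (GRCm39 according to the information sheet that came with it, although the submitters' notes name mm10). Sequences before transcription starts were taken from RefSeq on GRCm38.p6, which held windows for 8 of the 10 genes, and none was used here for Nr3c1 or Zbtb16. Each covers the 250 bases before a start, and bases that lie in an exon of a coding gene are left out where a sequence is printed. Both strands were searched for the arm of the glucocorticoid response element, AGAACA (in 16.1% of 32851 such windows genome-wide), and for the full palindrome, AGAACA and TGTTCT with 3 free bases between them (0.00913%, 3 windows). The metal response element cores TGCACNC (10.4%) and TGCGCNC (12.5%), the E-box CACGTG (6.02%) and the cyclic AMP response element TGACGTCA (1.55%) were searched as well. The Fkbp5 window, chr17:28486150-28486399 on the minus strand and outside any exon, is shown because Fkbp5 is the usual readout of the receptor, and its letters hold no such arm, only the E-box in capitals.
Fkbp5: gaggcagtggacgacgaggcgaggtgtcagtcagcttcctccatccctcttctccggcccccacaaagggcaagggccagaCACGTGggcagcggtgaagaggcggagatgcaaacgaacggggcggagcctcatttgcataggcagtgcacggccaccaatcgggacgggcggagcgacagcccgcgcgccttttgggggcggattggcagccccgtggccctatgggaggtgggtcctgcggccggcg

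**Figure D2:**
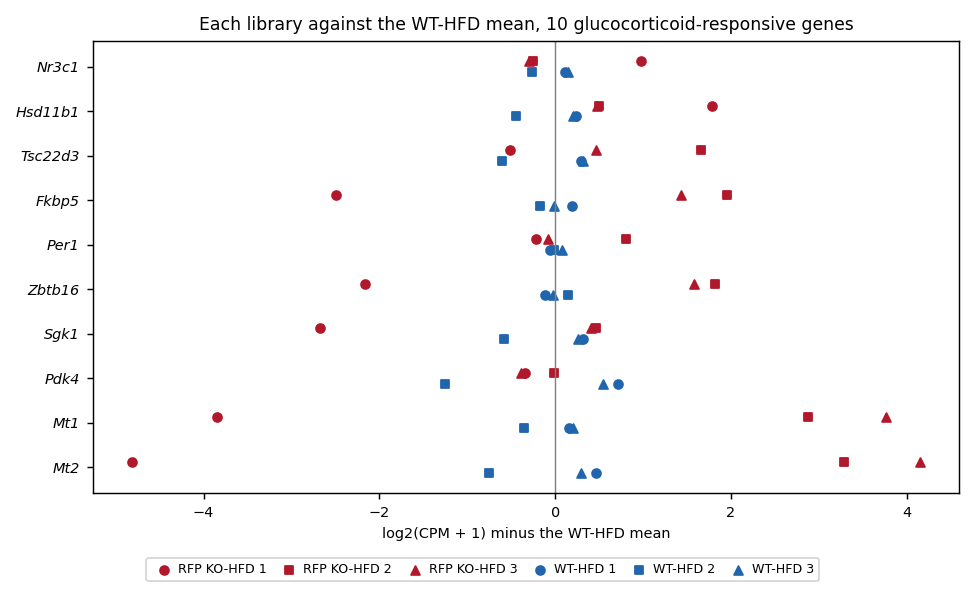
log2(CPM + 1) of each library minus the WT-HFD mean (horizontal axis) for the 10 genes, RFP KO-HFD in red above WT-HFD in blue, with circles, squares and triangles for replicates 1, 2 and 3. The 2 red markers other than the circle lie right of all blue markers for Hsd11b1, Tsc22d3, Fkbp5, Zbtb16, Sgk1, Mt1 and Mt2, while the red circle lies left of all blue markers for Fkbp5, Per1, Zbtb16, Sgk1, Mt1 and Mt2.

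Tsc22d3 (GILZ), a leucine zipper protein that carries part of the anti-inflammatory action of the hormone, was less even. It was at 85.5, 391 and 170 CPM in RFP KO-HFD 1, 2 and 3, against 151, 80.4 and 153 CPM in WT-HFD 1, 2 and 3. RFP KO-HFD 2 was far above every other library, RFP KO-HFD 3 was just above WT-HFD 3, and RFP KO-HFD 1 was beside the lowest WT-HFD library. The log2 fold change was 0.75 (standard error 0.622), and 1.12 (standard error 0.444) without RFP KO-HFD 1. It was positive under all 14 alternatives, from 0.04 to 1.12, but on library totals RFP KO-HFD 3 held 116 CPM and lay inside the WT-HFD range of 92.8 to 170 CPM.

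Per1, a clock repressor whose promoter region responds to the hormone and to cyclic AMP, was at 44.5, 91.6 and 49.0 CPM in RFP KO-HFD 1, 2 and 3, against 50.1, 51.5 and 54.9 CPM in WT-HFD 1, 2 and 3. One library, RFP KO-HFD 2, stood above WT-HFD, and the other RFP KO-HFD libraries lay just below it. The log2 fold change of 0.24 (standard error 0.393) was 0.42 without RFP KO-HFD 1 and turned negative without RFP KO-HFD 2 and with library totals. Per1 is a clock gene, and the labels give no time of day at which tissue was taken.

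Sgk1, a kinase that the hormone induces and that acts on ion transport and on the Foxo factors, was at 2.43, 29.3 and 28.1 CPM in RFP KO-HFD 1, 2 and 3, against 26.4, 13.7 and 25.3 CPM in WT-HFD 1, 2 and 3. RFP KO-HFD 2 and 3 exceeded the highest WT-HFD library by a small margin, and the value of RFP KO-HFD 1 came from 12 counts (95% exact Poisson interval 6.20 to 20.96 counts, covering counting error only). The log2 fold change was -0.13 (standard error 0.882) and 0.38 without RFP KO-HFD 1, and it was also positive with limma-voom quality weights, without WT-HFD 1 and without RFP KO-HFD 1 and WT-HFD 2. On library totals RFP KO-HFD 3, at 19.2 CPM, lay within the WT-HFD range.

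The Sgk1 gene covers chromosome 10 from 21758083 to 21875802 on the plus strand (table coordinates, GRCm39) and has 6 RefSeq windows, of which one holds the full glucocorticoid response element. That window is chr10:21993640-21993889 on the plus strand of GRCm38.p6, inside the Sgk1 gene and outside any exon. The element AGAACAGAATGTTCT stands at chr10:21993701-21993715, at bases -189 to -175 from the start that follows its own window, and 950 bases separate it from the last RefSeq start of the gene. It is shown with its palindrome and a further arm in capitals, since no other window of these genes held a full match.
Sgk1: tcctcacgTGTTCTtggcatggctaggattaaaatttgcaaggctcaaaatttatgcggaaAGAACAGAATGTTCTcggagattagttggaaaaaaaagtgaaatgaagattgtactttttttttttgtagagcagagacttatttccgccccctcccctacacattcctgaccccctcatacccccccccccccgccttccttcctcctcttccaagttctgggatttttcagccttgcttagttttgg
An E-box overlaps the first arm. The match is a description of letters and says nothing of binding in these tissues. The windows of Fkbp5, Per1, Pdk4, Mt1, Mt2 and Hsd11b1 held neither the full element nor an arm of it, and those of Tsc22d3 held a single arm.

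Pdk4, the kinase that shuts off pyruvate dehydrogenase in fasting and under the hormone, showed no excess in RFP KO-HFD 2 and 3. It was at 63.5, 79.6 and 61.3 CPM in RFP KO-HFD 1, 2 and 3, against 133, 33.1 and 118 CPM in WT-HFD 1, 2 and 3. The RFP KO-HFD libraries were close together and inside the WT-HFD range, which was wide, with WT-HFD 2 at 4.02-fold below WT-HFD 1. The log2 fold change was -0.48 (standard error 0.549), -0.45 without RFP KO-HFD 1, and -0.84 (standard error 0.196) without RFP KO-HFD 1 and WT-HFD 2, and its sign was negative under all 14 alternatives. Its window held none of the 6 motifs.

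The metallothioneins had the widest range of the 10 genes. Mt1 was at 26.5, 2913 and 5369 CPM in RFP KO-HFD 1, 2 and 3, against 441, 308 and 454 CPM in WT-HFD 1, 2 and 3. Mt2 was at 4.04, 1381 and 2516 CPM in RFP KO-HFD 1, 2 and 3, against 195, 83.2 and 172 CPM in WT-HFD 1, 2 and 3. RFP KO-HFD 2 and 3 were above every WT-HFD library for both genes and RFP KO-HFD 1 was below every one. Averaged over RFP KO-HFD 2 and 3, Mt1 was 10.3 times and Mt2 12.98 times the WT-HFD mean, whereas in RFP KO-HFD 1 Mt1 was 15.1-fold and Mt2 37.1-fold below it. The Mt2 value of RFP KO-HFD 1 rests on 20 counts (95% exact Poisson interval 12.2 to 30.9), and that of Mt1 on 131.

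With all 6 libraries the log2 fold change was 2.79 (standard error 1.45) for Mt1 and 3.12 (standard error 1.66) for Mt2. Without RFP KO-HFD 1 it was 3.35 (standard error 0.369) for Mt1 and 3.68 (standard error 0.474) for Mt2. They then stood 150th and 102nd from the top of the 15606 fitted genes, within the highest 0.961% and 0.654%. Without RFP KO-HFD 3 the log2 fold changes were 1.85 for Mt1 and 2.18 for Mt2, and with the replicate number as a block 1.88 and 2.39. Both signs were positive under all 14 alternatives, and on library totals Mt1 in RFP KO-HFD 2 and 3 was at 2861 and 3663 CPM, against at most 505 CPM in WT-HFD. The ratio of Mt1 to Mt2 counts was 6.55, 2.11 and 2.13 in RFP KO-HFD 1, 2 and 3, against 2.26, 3.70 and 2.63 in WT-HFD 1, 2 and 3. Liver is known to hold much metallothionein, and the hepatocyte markers summed to more in each RFP KO-HFD library than in any WT-HFD library, with RFP KO-HFD 1 the highest for these markers and the lowest for Mt1 and Mt2. The part of such RNA in the metallothionein values was not tested.

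Both genes lie on the plus strand of chromosome 8 in the deposited table, Mt2 from 94899246 to 94900195 and Mt1 from 94905214 to 94906955, 5018 bases apart. Their windows are shown side by side because both genes lay on the same side of WT-HFD in each RFP KO-HFD library, with metal response element cores in capitals. The Mt1 window is chr8:94178839-94179081 and the Mt2 window chr8:94172368-94172617, both on the plus strand of GRCm38.p6. The Mt1 window overlaps the annotated Mt1 gene, and the 7 bases of it that lie in an Mt1 exon are not printed. The Mt1 window holds 1 core and the Mt2 window 3. Sequence outside these windows was not searched, so the counts are not those of whole promoters. The Mt2 window also lies in an exon of Gm45774, a gene annotated on the other strand.
Mt1: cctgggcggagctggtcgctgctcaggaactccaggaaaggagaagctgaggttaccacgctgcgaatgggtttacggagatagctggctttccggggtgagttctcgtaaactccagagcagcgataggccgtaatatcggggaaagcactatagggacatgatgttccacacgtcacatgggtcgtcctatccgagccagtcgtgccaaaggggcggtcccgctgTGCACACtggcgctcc
Mt2: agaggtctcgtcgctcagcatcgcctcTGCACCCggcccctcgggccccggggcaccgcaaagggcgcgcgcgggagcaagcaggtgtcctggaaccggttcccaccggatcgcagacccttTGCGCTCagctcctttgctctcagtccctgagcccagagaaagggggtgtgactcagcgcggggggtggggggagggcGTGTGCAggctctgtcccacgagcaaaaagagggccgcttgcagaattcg
Whether reads were counted by strand, and how reads that fit both metallothioneins were assigned, is not given in the sources used here.

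By distance over the 6 libraries, on log2(CPM + 1) centred on each gene's mean, the genes outside the lists most like Fkbp5 were Katnal2 (root mean square 0.165), Ccdc85a (0.220) and Azin2 (0.236). Azin2 was at 0.809, 35.4 and 32.6 CPM in RFP KO-HFD 1, 2 and 3, against 12.04, 12.1 and 13.002 CPM in WT-HFD 1, 2 and 3, with the low first library and the close WT-HFD values of Fkbp5. The genes most like Mt1 were Sh2b2 (0.430), Pim3 (0.545) and Ifi27l2a (0.576), while Mt2 itself was at a distance of 0.499. Sh2b2, an adaptor of receptor tyrosine kinases, was at 0, 77.8 and 180 CPM in RFP KO-HFD 1, 2 and 3, against 27.0, 14.3 and 24.1 CPM in WT-HFD 1, 2 and 3. Every gene that is low in RFP KO-HFD 1 shares this trait with 63.5% of the genes tested, which lay below all WT-HFD libraries there.

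Around the 10 genes, 9 lists of hormone-related genes held 94 distinct genes that could be tested, and 0 of them passed with all 6 libraries (edgeR adjusted p). At an unadjusted p under 0.05 there were 17, beside 6.75% of all genes tested. At an adjusted p under 0.05 DESeq2 called 7 and limma-voom with quality weights 20, beside 3.45% and 7.20% of all genes. The lists were chosen with earlier results of these data known, so nothing is read from these counts. The nearest list, 20 other glucocorticoid-induced genes, had 18 with a positive and 2 with a negative log2 fold change and a median of 0.75, beside a median of 0.91 for the 10 genes and -0.13 for all genes tested. Without RFP KO-HFD 1 those medians were 1.07, 0.78 and -0.07, and with library totals 0.42, 0.60 and -0.50. Of all genes tested 44.0% had a positive log2 fold change, 46.5% without RFP KO-HFD 1 and 29.2% with library totals. Glul, glutamine synthetase, was at 371, 2360.3 and 2244 CPM in RFP KO-HFD 1, 2 and 3, against 1486, 682 and 1388 CPM in WT-HFD 1, 2 and 3. Anxa1, an anti-inflammatory protein, lay the other way, at 41.2, 115 and 86.3 CPM, against 458, 135 and 426 CPM. Lpin1 and Angptl4, both of lipid turnover, had log2 fold changes of 0.52 and 0.49, and 1.001 and 1.03 without RFP KO-HFD 1.

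Cebpd, a transcription factor of early fat cell differentiation that the hormone induces, was named after its values were seen. It was at 0, 82.6 and 111 CPM in RFP KO-HFD 1, 2 and 3, against 9.41, 8.94 and 9.97 CPM in WT-HFD 1, 2 and 3. Without RFP KO-HFD 1 it rose by a log2 fold change of 3.34 (standard error 0.209, edgeR adjusted p = 0.0360, 0.0170 to 0.99998 over the 14 settings that tested it, and under 0.05 in 3), 1 of 2 genes (0.0128%) that passed of the 15606 then tested, the other being Rn7sk, with 3847 (24.7%) at an unadjusted p under 0.05. In RFP KO-HFD 1 a count of 0 allows at most 0.607 CPM of it. In the same library Fkbp5, Zbtb16, Sgk1, Mt1 and Mt2 lay below every WT-HFD library, and Adipoq and Plin1 had no count.

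**Figure D3:**
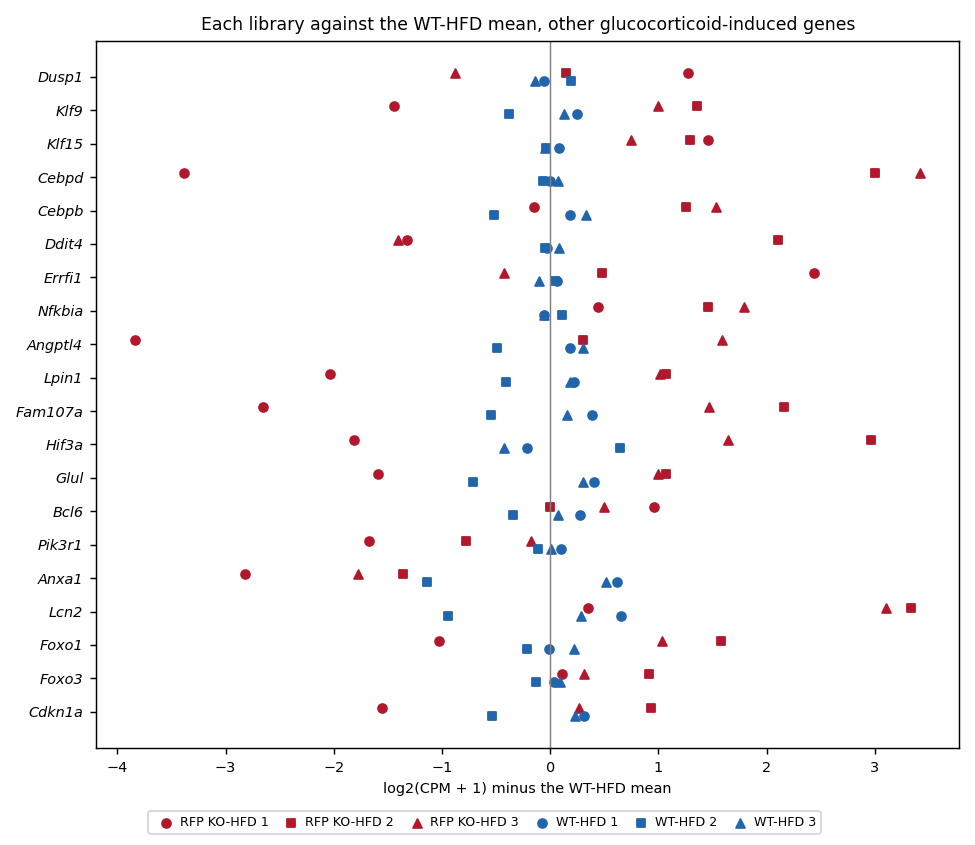
log2(CPM + 1) of each library minus the WT-HFD mean for the 20 other glucocorticoid-induced genes, RFP KO-HFD in red above WT-HFD in blue, with circles, squares and triangles for replicates 1, 2 and 3. In 13 of the 20 the red squares and triangles lie right of all blue markers (21.1% of all genes tested do), and in 2 (Pik3r1 and Anxa1) they lie left of them (24.2%).

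Hormone supply and the receptor's partners gave no common direction. Of 7 genes of hormone supply and clearance 3 were positive, with a median of -0.17, but 4 with a median of 0.23 without RFP KO-HFD 1. H6pd, which makes the cofactor that Hsd11b1 needs, was at 138, 835 and 1017 CPM in RFP KO-HFD 1, 2 and 3, against 331, 262 and 376 CPM in WT-HFD 1, 2 and 3, lowest in RFP KO-HFD 1 like Fkbp5, whereas Hsd11b1 was highest there. Serpina6, the hormone's carrier in plasma, which is made in liver, was at 57.6, 1.10 and 3.41 CPM, against 0.164, 0.455 and 0 CPM. Of 12 chaperones 7 were positive (median 0.14, and 0.22 without RFP KO-HFD 1), and of 10 coregulators 9 (median 0.31, and 0.12 without it). With library totals these counts were 5 and 5 and the medians -0.16 and -0.03. Of all genes tested 29.2% were then positive, with a median of -0.50, against 44.0% and -0.13 with TMM. The most abundant chaperones, Hspa8, Hsp90ab1, Hsp90aa1 and Bag1, had log2 fold changes of 0.26, 0.03, 1.11 and -0.25 with all 6 libraries and -0.10, -0.12, 0.72 and 0.18 without RFP KO-HFD 1, so that 3 of the 4 signs turned. Among the most abundant coregulators, Ncor1, Smarca4 and Ncoa1 had log2 fold changes of 0.29, 0.77 and 0.20, and of 0.56, 0.16 and 0.01 without RFP KO-HFD 1.

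The other lists bear on the metallothioneins, Pdk4 and the repressed genes. Of 10 genes of the metal response 3 were positive, with a median of -0.45 (-0.11 without RFP KO-HFD 1, -0.96 without RFP KO-HFD 2). Over all genes tested the medians of those fits were -0.13, -0.07 and -0.29. The list holds Mtf1, zinc carriers and other genes, and no common direction was set for it, so its median is a description only. Mtf1 was at 0.607, 31.5 and 20.04 CPM in RFP KO-HFD 1, 2 and 3, against 21.01, 24.02 and 21.9 CPM in WT-HFD 1, 2 and 3. Slc39a1, a zinc importer, was at 110, 217 and 210 CPM, against 240, 195 and 250 CPM. Of 11 fasting and PPAR targets 6 were positive (median 0.49, and 0.69 without RFP KO-HFD 1). Their median was -0.21 without RFP KO-HFD 3, -0.30 with the replicate number as a block and -0.05 with library totals. Over all genes tested the medians of those fits were -0.32, -0.49 and -0.50, each lower than that of the list. Of 10 inflammatory genes known to be repressed by the hormone 6 could be tested, of which 5 were positive (median 0.97). Without RFP KO-HFD 1 the median was 0.67 over 9 genes, and without RFP KO-HFD 3 it was -0.84 over 8 genes. The filter let different genes through in each fit, so these medians do not compare the same genes. The highest in level among the tested ones was Icam1 at 78.6, 24.5 and 58.6 CPM, against 24.4, 20.6 and 28.6 CPM. Of 11 immediate early genes 9 were positive (median 0.86, and 0.55 without RFP KO-HFD 1), with Zfp36, which destabilizes inflammatory mRNAs, at 199, 110 and 234 CPM, against 74.0, 58.1 and 62.2 CPM. Of 12 paralogues of the 10 genes 5 were positive (median -0.32, and -0.03 without RFP KO-HFD 1), and the median was 0.08 without WT-HFD 2. With library totals 4 of the 6 repressed genes, 8 of the 11 immediate early genes and 5 of the 11 fasting targets were positive. Of all genes tested 29.2% were positive on that scale. Among the paralogues Pdk2 was at 19.004, 369 and 734 CPM, against 95.4, 214 and 114 CPM, while Pdk1 was at 31.9, 14.5 and 19.3 CPM, against 33.4, 31.7 and 32.3 CPM.

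**Figure D4:**
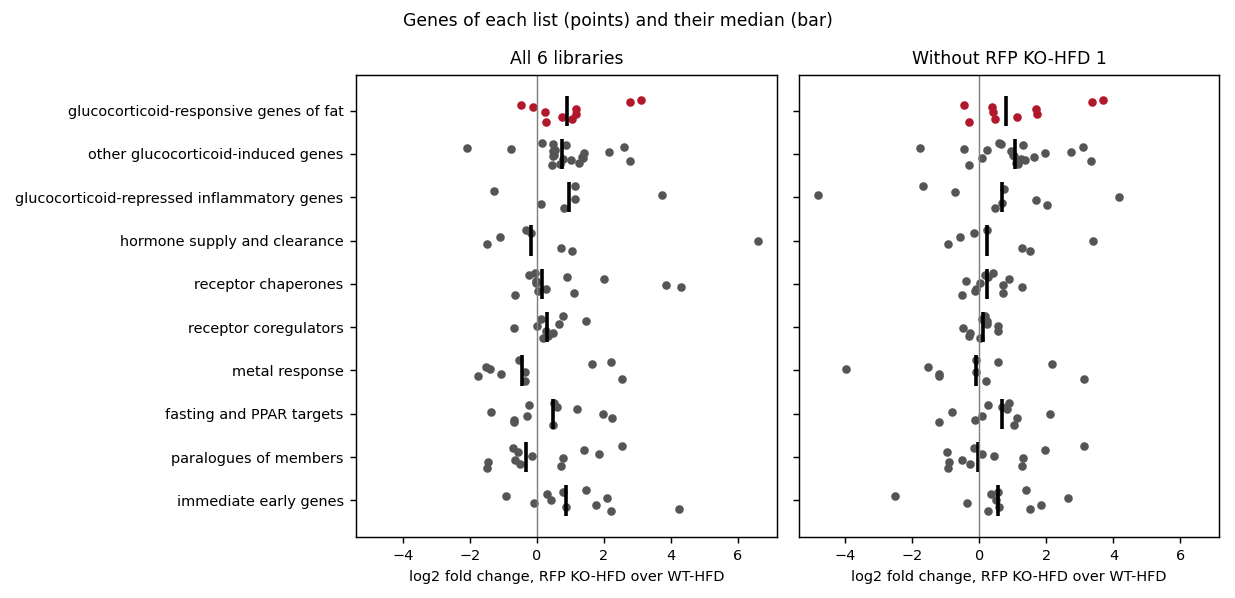
log2 fold change of RFP KO-HFD over WT-HFD for each gene (points) of the 10 glucocorticoid-responsive genes (red) and 9 related lists (grey), with the median as a bar, for all 6 libraries (left) and without RFP KO-HFD 1 (right). The median of the 10 genes is 0.91 on the left and 0.78 on the right, and that of the other induced genes 0.75 and 1.07.

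The labels give the cell type as adipocyte, but markers of other cells of the fat pad were counted, and they differed between the libraries alongside these genes. Adipocyte markers summed to 11658, 24126 and 41051 CPM in RFP KO-HFD 1, 2 and 3, against 23772, 14411 and 23792 CPM in WT-HFD 1, 2 and 3, with 6 of 8 positive (3 with library totals). Of all genes tested 44.0% were positive (29.2% with library totals). In RFP KO-HFD 1 Lpl, which other cells express too, made up 11468 CPM of that sum, while Adipoq and Plin1 had no count, Fabp4 104 CPM and Cidec 47.5 CPM, each below every WT-HFD library. Preadipocyte and fibroblast markers summed to 144, 1787 and 806 CPM, against 3887, 1538 and 3466 CPM, with 8 of 8 negative. Macrophage markers summed to 364, 786 and 517 CPM, against 2202, 834 and 2116 CPM, with 7 of 8 negative. Mesothelial markers summed to 8.09, 89.5 and 12.9 CPM, against 77.4, 511 and 127 CPM, with 6 of 6 negative. Endothelial markers had no common direction, with 4 of 7 positive and 3 negative. They summed to 115, 1169 and 996 CPM, against 654, 482 and 620 CPM. Epididymal markers summed to 1217 CPM in WT-HFD 2 and to at most 4.61 CPM in the other 5 libraries. WT-HFD 2, in which the adipocyte and macrophage sums were the lowest of the group, was also the lowest WT-HFD library for Nr3c1, Hsd11b1, Tsc22d3, Fkbp5, Sgk1, Pdk4, Mt1 and Mt2. The part of cell makeup in the values of the 10 genes was not tested.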

How the data were processed

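Poly(A) RNA from Trizol extracts of eWAT went into CORALL libraries (Lexogen). The paper's methods name FastQC, Fastp, STAR and Salmon, the submitters' processing notes FastQC, Trimmomatic, STAR and mm10, and the information sheet GRCm39, with no versions. The authors deposited a whole-number count per gene and library, which was used as it stands. Their log2 normalized values, folds, p-values and q-values for the same comparison were not used. Whether counting used strand is not given in the sources used here.

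Genes were kept with filterByExpr (min.count 10, min.total.count 15) and fitted with edgeR 4.0.16 (TMM, glmQLFit and glmQLFTest, robust, two-sided) in R 4.3.3 with Benjamini-Hochberg adjustment over all genes, checked on simulated data. A standard error is the log2 fold change divided by the square root of F. CPM used TMM-scaled library sizes, and 1 was added before log2. Alternative settings used RLE factors, library totals, other filters, the replicate number as a block, libraries left out, DESeq2 1.42.0, and voom with quality weights in limma 3.58.1.

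The 10 genes, the lists, the tests and the rules were chosen with earlier results of these data known. The text names Trim27, the 10 genes, genes among the 4 of highest mean CPM in each list, Adipoq, Plin1, Alb and the 3 genes most like Fkbp5 and Mt1. Cebpd, Rn7sk and Pik3r1 were named after their values were seen. Some genes that the rule names are not reported here. Tsc22d4 was listed but not matched in the table. Promoter windows are RefSeq sequences on GRCm38.p6, annotated with GENCODE M21, and were never set against GRCm39 coordinates. Depth limits the library labelled RFP KO-HFD 1 most, at 4870239 counts.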

Additional observations from a re-analysis of the deposited data

How the results depend on the processing

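The number of the 10 genes with a positive log2 fold change was 8 with all 6 libraries and 6 to 9 under the 14 alternatives, and their median was 0.91 and 0.52 to 1.001. Nr3c1, Per1 and Sgk1 changed sign in 4, 2 and 4 of the 14 alternatives, and the other 7 genes in none. Over all genes, edgeR called 0 at an adjusted p under 0.05, DESeq2 488, limma-voom with quality weights 1059, and edgeR without RFP KO-HFD 1 and WT-HFD 2 called 507. Leaving out each library in turn gave 0 to 2, the 2 without RFP KO-HFD 1. Among the genes of the 9 lists the counts were 0 with edgeR, 7 with DESeq2, 20 with quality weights and 9 without both libraries. The shares over all genes were 0%, 3.45%, 7.20% and 3.35%. With each library left out the list count was 0 to 1, the 1 being Cebpd without RFP KO-HFD 1, beside 0.0128% of all genes. The cause of these differences was not tested. Of the 10 genes, 4 passed with quality weights and 4 without both libraries, in fits of the contrast that chose them. Of 266 other values 250 moved by less than the spread between libraries and 16 by more. That spread is the standard deviation within groups and includes RFP KO-HFD 1, so it is wide for many genes. Sgk1 stayed within it in all 14 alternatives though its sign changed in 4, so the count is a weak check. Library totals in place of TMM moved the all-gene median log2 fold change to -0.50, against -0.13 with TMM, and only Fkbp5, Zbtb16, Mt1 and Mt2 then kept RFP KO-HFD 2 and 3 above all WT-HFD libraries.

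Samples of the same replicate number deviated together only weakly (r of 0.04, 0.05 and 0.09 across genes, each the highest for its library), under the limit of 0.1 for pairing, so the numbers were not used as a block. With the replicate number as a block edgeR called 0 genes, and the median of the 10 genes was 0.52, beside -0.49 over all genes. Depth limits the low values of the library labelled RFP KO-HFD 1, where a count of 0 allows 0.607 CPM, against 0.157 to 0.330 CPM in the other 5.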
